A study of Mus musculus with 30 samples.

Results

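The genes described here are 8 antioxidant genes that the transcription factor NRF2 is known to activate (Hmox1, Nqo1, Srxn1, Txnrd1, Gclm, Gclc, Gsr and Slc7a11) and the metallothionein genes Mt1 and Mt2. They were taken as a list by symbol, and all 10 were found among the 21820 protein-coding genes of the RNA-seq files. RNA was measured in 14 libraries from adult male mice. Acutely isolated brain ECs (2 libraries) were the GFP-positive cells, and non-endothelial brain cells (2 libraries) the GFP-negative cells, that were sorted from Tie2-GFP mice, in which the Tie2 promoter drives GFP in ECs. WT cultures (6 libraries) were brain ECs grown for 8 days, replicates 1 and 2 from C57BL/6J mice and replicates 3 to 6 from Ctnnb1flex3/+;Tie2-GFP mice. Beta-catenin stabilized cultures (4 libraries) came from Ctnnb1flex3/+;Pdgfb-CreER;Tie2-GFP mice, in which CreER, driven by the endothelial Pdgfb promoter, removes exon 3 of Ctnnb1. These mice, and the Ctnnb1flex3/+;Tie2-GFP controls, had received 100 ug of 4-hydroxytamoxifen at postnatal day 10. All cultures were selected with puromycin and grown on collagen in a medium with serum, growth factors, hydrocortisone and ascorbic acid. The cells of WT and stabilized replicates 1 and 2 were isolated by method A (papain digestion, 6 mice pooled, 4 ug/ml puromycin), and those of the other cultures by method B (Dounce homogenization and collagenase/dispase, 4 to 6 mice pooled, 8 ug/ml puromycin). This assignment follows the Methods of the study, and the genotypes in the labels fit its account of the controls, but a legend gives method B to a single pair of WT cultures and method A to the other 4, so the method of WT replicates 5 and 6 is uncertain. Replicates of a culture were wells, 2 from each experiment, and the sources do not say which animals gave each acute replicate, so p-values reflect the spread between these samples.

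NRF2, encoded by Nfe2l2, is bound by KEAP1 and degraded in unstressed cells. Oxidants and electrophiles release it, and with a small MAF partner it binds antioxidant response elements and raises enzymes that break down heme and quinones, make and recycle glutathione and reduce thioredoxin. Metallothioneins are small cysteine-rich proteins that hold zinc and copper. Their genes respond to metals through the factor MTF1, and also to glucocorticoids and oxidants. In brain, Mt1 and Mt2 are best known from astrocytes.

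The total of estimated counts per library ran from 24284843 to 94686456. In the labels and methods, the sorted cells gave amplified cDNA read as single ends of 75 cycles, whereas the cultures were read as paired ends of 36 cycles, or 150 cycles at another provider for WT replicates 3 and 4. Culture, RNA amplification and read type therefore cannot be told apart. Nuclear protein-coding genes held 94.1% and 94.3% of the TPM in WT replicates 3 and 4 but 26.5% to 63.1% in the other libraries. Levels are therefore given as rescaled TPM, a value per transcript length that sums to 1000000 over nuclear protein-coding genes in each library. EC markers summed to 4538 and 5737 rescaled TPM in the acute ECs, 2879 to 9386 in WT cultures and 4851 to 8966 in stabilized cultures. In the GFP-negative cells they summed to 18.2 and 69.5, so the sums matched the labels of EC and GFP-negative libraries. Hemoglobin genes and Alas2 together reached 16900 and 101500 rescaled TPM in the acute ECs, 5171 and 42870 in the GFP-negative cells and at most 2.45 in any culture.

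The sequences below are shown because they lie in accessible chromatin or directly upstream of the genes that differed most, and because they hold the letters of the response elements named above. Coordinates are those of GRCm38. The antioxidant response element was searched as TGACNNNGC on both strands, and TGAGTCAGC, a form that differs at the fourth letter, was added after the windows had been seen. Capitals mark the matches as they read on the plus strand, so a match on the minus strand appears reversed and complemented. The AP-1 factors bind TGANTCA, so that a match that runs TGACTCA or TGAGTCA holds the letters of both motifs. The first pair are 300-base windows around the summits of peaks at −9.62 kb (chr8:75083855-75084154) and −3.93 kb (chr8:75089543-75089842) from the Hmox1 start, and overlap no annotated exon.

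Hmox1 −9.62 kb: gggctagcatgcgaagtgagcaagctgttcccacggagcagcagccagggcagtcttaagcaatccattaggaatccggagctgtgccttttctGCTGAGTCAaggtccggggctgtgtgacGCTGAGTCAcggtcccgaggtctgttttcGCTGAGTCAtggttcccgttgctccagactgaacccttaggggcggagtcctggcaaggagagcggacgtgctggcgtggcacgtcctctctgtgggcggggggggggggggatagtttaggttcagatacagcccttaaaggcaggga
Hmox1 −3.93 kb: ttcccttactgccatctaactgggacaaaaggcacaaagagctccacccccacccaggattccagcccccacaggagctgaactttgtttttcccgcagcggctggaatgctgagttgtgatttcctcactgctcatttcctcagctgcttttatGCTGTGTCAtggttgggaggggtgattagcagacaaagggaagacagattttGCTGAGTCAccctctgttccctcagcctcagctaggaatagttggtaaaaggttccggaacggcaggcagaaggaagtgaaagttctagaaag

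The −9.62 kb window held 3 matches and the −3.93 kb window held 2. Among the 300-base windows of all 125938 peak regions, 15.2% held at least 1 match, 1.42% at least 2 and 0.132% at least 3. The printed windows were picked for holding matches, so these shares only show how common such windows are. The next window surrounds the summit of a peak at −19.71 kb from the first annotated start of Txnrd1 (chr10:82814086-82814385), and the 242 bases after it end just before the Srxn1 start (chr2:152105274-152105515).

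Txnrd1 −19.71 kb: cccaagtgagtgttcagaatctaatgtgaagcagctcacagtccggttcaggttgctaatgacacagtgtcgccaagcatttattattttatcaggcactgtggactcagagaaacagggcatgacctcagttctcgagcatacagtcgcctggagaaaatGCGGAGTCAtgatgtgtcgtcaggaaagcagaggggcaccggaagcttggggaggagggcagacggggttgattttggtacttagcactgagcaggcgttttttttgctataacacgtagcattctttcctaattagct
Srxn1 upstream: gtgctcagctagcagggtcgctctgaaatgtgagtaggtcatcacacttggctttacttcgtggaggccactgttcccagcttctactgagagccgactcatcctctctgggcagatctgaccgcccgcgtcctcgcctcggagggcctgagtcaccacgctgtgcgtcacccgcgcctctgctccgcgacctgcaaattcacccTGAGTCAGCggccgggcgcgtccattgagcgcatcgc

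The Txnrd1 window held 1 match to TGACNNNGC, and the Srxn1 stretch 1 match to TGAGTCAGC. Of 32851 RefSeq promoters (300 bases, GRCm38.p6), 12.4% held TGACNNNGC and 0.414% held TGAGTCAGC. The metal response element was searched as TGCGCNC and TGCACNC. The 250 bases upstream of the Mt2 start in RefSeq (chr8:94172368-94172617, which overlap an exon of the gene model Gm45774) are shown with both kinds of element in capitals.

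Mt2 upstream: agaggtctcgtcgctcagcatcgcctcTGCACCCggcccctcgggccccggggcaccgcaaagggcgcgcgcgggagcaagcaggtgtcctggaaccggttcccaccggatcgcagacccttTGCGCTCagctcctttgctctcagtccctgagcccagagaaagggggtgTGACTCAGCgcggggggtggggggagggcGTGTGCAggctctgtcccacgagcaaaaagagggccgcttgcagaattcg

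This stretch held 1 match to TGACNNNGC and 3 to the metal element. TGCGCNC was found in 15.4% and TGCACNC in 12.6% of all RefSeq promoters. The RefSeq promoter table matched 7 of the 10 genes, and Hmox1, Gclc and Gsr were not in it. The promoters of Nqo1, Slc7a11 and Mt1 held no match to TGACNNNGC or TGAGTCAGC. Those of Gclm, Srxn1, Mt2 and an internal start of Txnrd1 held 1 match to TGACNNNGC each, and the other Txnrd1 promoters none. A match is a description of letters and not evidence of binding.

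Among the 10 genes, the metallothioneins were the most abundant in the sorted cells, and Hmox1 joined them in culture. In WT cultures the order of mean levels was Mt1 (506 ± 281 rescaled TPM, SD, n = 6), Hmox1 (348 ± 77.3), Mt2 (315 ± 52.8), Gclm (156 ± 21.03), Txnrd1 (133 ± 33.2), Gsr (66.3 ± 14.6), Srxn1 (55.9 ± 16.3), Gclc (30.8 ± 3.59), Nqo1 (14.4 ± 6.29) and Slc7a11 (9.63 ± 10.2). The ranges of neighbors did not overlap between Mt2 and Gclm, Txnrd1 and Gsr, Srxn1 and Gclc, and Gclc and Nqo1. The other neighbors in this order overlapped. Hmox1 was the lowest of the 10 in the GFP-negative cells, the seventh in the acute ECs, the second in WT cultures and the first in stabilized cultures.

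**Figure D1:**
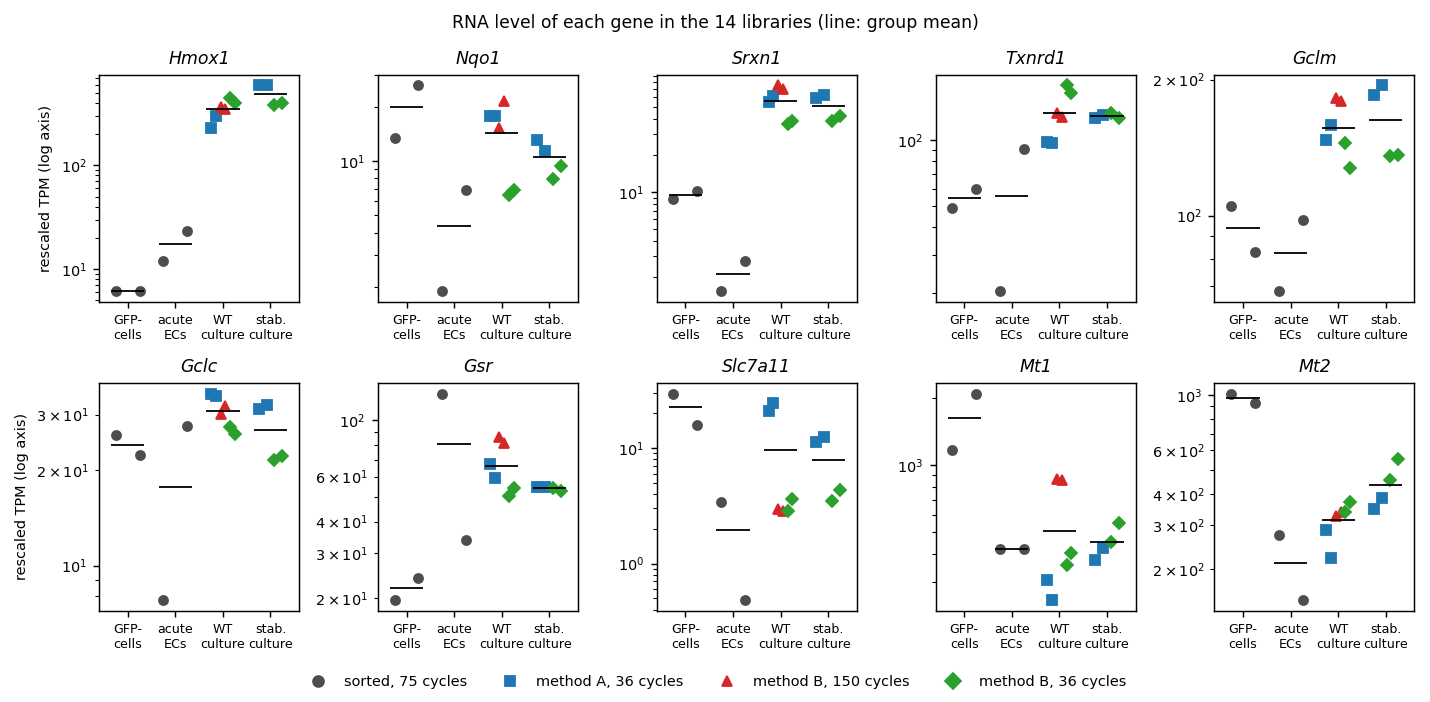
Rescaled TPM (log axis) of each of the 10 genes in the 14 RNA-seq libraries, with a point per library, a line at each group mean and the symbol giving isolation and read length. Hmox1 and Srxn1 lie far higher in all 10 cultures than in the acute ECs, whereas Mt1 and Mt2 are highest in the GFP-negative cells.

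The first comparison was between WT cultures and acutely isolated ECs, and asked how these genes changed when brain ECs were placed in culture. Hmox1, Srxn1 and Txnrd1 rose in counts and in level. Gsr was called higher in counts alone, and none of the 10 was called lower. For a gene to be called, its Benjamini-Hochberg adjusted p in the quasi-likelihood test of edgeR had to be under 0.05, its counts had to differ by more than 2-fold, and its deposited TPM had to reach 5 in every library of the higher group. Of 13784 genes tested, 13.5% were called higher and 10.2% lower, against 4 and 0 of these 10. The median log2 difference was 1.11 for the 10 genes and 0.10 for all genes tested. The 10 genes were chosen with earlier results of these data known. These shares therefore describe them and do not test them as a set.

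Hmox1 (ENSMUSG00000005413.8, chr8:75093621-75100589, plus strand) encodes heme oxygenase 1, which cleaves heme to biliverdin, iron and carbon monoxide. Its level was 11.9 and 23.2 rescaled TPM in the acute ECs and 229 to 447, with a median of 358, in the 6 WT cultures. The groups did not overlap. Here and below, the share of all genes whose groups did not overlap was not counted. The log2 difference in counts was 4.71 ± 0.52 (SE), or 26.2-fold, with an adjusted p of 0.000291. It was 4.15 in the cultures of method A alone and 5.14 in those of method B with 36 cycles. The 9 markers of microglia and macrophages, which also express Hmox1, summed to at most 5.33 rescaled TPM in any WT culture, and 8 of the 9 were under 1 in all of them.

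Nqo1 (ENSMUSG00000003849.8, chr8:107388225-107403206, minus strand) encodes the quinone reductase NAD(P)H dehydrogenase 1. It was at 1.88 and 6.87 rescaled TPM in the acute ECs and at 6.498 to 21.7 (median 16.6) in WT cultures. The highest acute library thus lay within the range of the cultures. The log2 difference was 1.83 ± 0.63 (adjusted p 0.0401), but Nqo1 missed the TPM minimum in WT replicates 5 and 6 (2.61 and 2.96 TPM as deposited) and was not called. Without single libraries the difference ran from 1.24 to 2.80. With no TPM minimum, or with the minimum set on rescaled TPM, it was called.

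Srxn1 (ENSMUSG00000032802.8, chr2:152105516-152111376, plus strand) encodes sulfiredoxin, which restores overoxidized peroxiredoxins. It was close to absent in the acute ECs, at 1.53 and 2.69 rescaled TPM, and reached 35.9 to 75.6 (median 58.0) in WT cultures. No culture overlapped the acute libraries. Its log2 difference was 3.94 ± 0.45, or 15.4-fold (adjusted p 0.000316).

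Txnrd1 (ENSMUSG00000020250.10, chr10:82833951-82897712, plus strand) encodes the cytosolic thioredoxin reductase. Its 2 acute libraries differed widely, at 20.4 and 90.5 rescaled TPM, and both lay below the range of 97.2 to 178 (median 129.8) in WT cultures. The log2 difference in counts was 2.17 ± 0.45, or 4.51-fold (adjusted p 0.00476). Counts do not correct for the length of the transcripts in use, and in acute replicate 2 the transcript Txnrd1-203 took 81.8% of the TPM of the gene, whereas it took 0% in acute replicate 1 and at most 8.33% in a WT culture. With an offset for average transcript length the difference was 1.33 and was no longer called.

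Gclm (ENSMUSG00000028124.15, chr3:122245557-122270732, plus strand) and Gclc (ENSMUSG00000032350.9, chr9:77754535-77794485, plus strand) encode the modifier and the catalytic subunit of glutamate-cysteine ligase, the rate-limiting enzyme of glutathione synthesis. Gclm was at 67.9 and 97.6 rescaled TPM in the acute ECs and at 128 to 182 (median 153) in WT cultures, without overlap. In counts, its difference was small (log2 0.21 ± 0.30, adjusted p 0.583). Gclc was at 7.77 and 27.7 rescaled TPM in the acute ECs and at 26.1 to 34.97 (median 31.0) in WT cultures, and the ranges overlapped. Its log2 difference of 0.81 ± 0.26 (adjusted p 0.0332) was under 2-fold and was not called.

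Gsr (ENSMUSG00000031584.16, chr8:33652523-33698163, plus strand) encodes glutathione reductase, which returns oxidized glutathione to its reduced form. It was called higher in counts (log2 1.12 ± 0.33, 2.18-fold, adjusted p 0.0229), although its levels were 127 and 34.0 rescaled TPM in the acute ECs and 50.3 to 85.7 (median 63.1) in WT cultures. The acute libraries lay on either side of the cultures. In the acute ECs the full-length coding transcript Gsr-201 held 6.88% and 35.9% of the TPM of Gsr, against 92.0% to 100% in WT cultures, the rest being assigned to processed transcripts. With the length offset the log2 difference was −0.39. The call was also lost without either acute library, and with the cultures of a single method, so Gsr is given here as uncertain.

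Slc7a11 (ENSMUSG00000027737.10, chr3:49892526-50443614, minus strand) encodes the cystine/glutamate exchanger xCT, which supplies cystine for glutathione. It had the lowest mean of the 10 in cultured and acute ECs, at 3.40 and 0.482 rescaled TPM in the acute ECs and 2.83 to 24.5 (median 3.30) in WT cultures. The cultures of replicates 1 and 2 were the high ones, at 21.03 and 24.5. The log2 difference of 1.10 ± 1.14 had an adjusted p of 0.457, and was −0.42 for the cultures of method B with 36 cycles. The 2 acute libraries set its size, since it was 3.601 without acute EC replicate 1 and 0.22 without acute EC replicate 2. Slc3a2, the heavy chain that carries xCT and other exchangers to the membrane, fell by 2.47 on the log2 scale (adjusted p 0.00338).

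Mt1 (ENSMUSG00000031765.8, chr8:94179082-94180327, plus strand) and Mt2 (ENSMUSG00000031762.7, chr8:94172664-94173568, plus strand) are neighbors on chromosome 8. Mt1 was at 420.5 and 419.6 rescaled TPM in the acute ECs and at 248 to 867 (median 378.5) in WT cultures. The cultures of replicates 3 and 4 lay above the acute ECs and the other 4 below. The log2 difference was −0.34 ± 0.58 (adjusted p 0.655), and −1.09 and called lower with the 36-cycle cultures alone. Mt2 was at 274 and 150.1 rescaled TPM in the acute ECs and at 223 to 372 (median 333) in WT cultures, where the ranges overlapped. Its log2 difference was −0.44 ± 0.36 (adjusted p 0.339), and turned to 0.51 with the length offset.

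**Figure D2:**
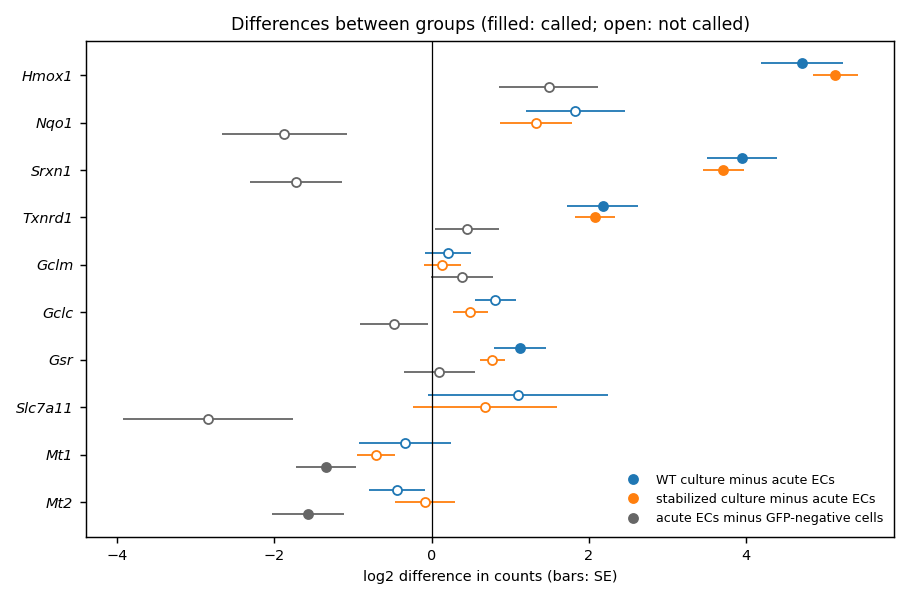
Log2 difference in counts (x axis; bars, SE) of each gene in the comparisons of WT culture with acute ECs, stabilized culture with acute ECs, and acute ECs with GFP-negative cells; filled points were called and open points were not. Hmox1 and Srxn1 stand at 3.7 or more in both culture comparisons, and Mt1 and Mt2 are the only genes called in the comparison of sorted cells.

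Hmox1, Srxn1 and Txnrd1 were called under each other alternative tried, apart from the loss of Txnrd1 with the length offset. Of the 7 EC markers, 1 was called higher and 3 lower in WT cultures than in acute ECs (median log2 difference −1.86). All genes stood at 13.5% and 10.2%, and the sums of EC markers given above hide these opposite changes. Markers of other cell types also differed between these groups. Astrocyte markers summed to 238 and 1454 rescaled TPM in the acute ECs and to 10.0 to 48.7 in WT cultures. Of 8 pericyte and smooth muscle markers, 5 were called lower and 2 higher in culture, so that their sum (1172 and 1203 against 385 to 1835) hides opposite changes. The pericyte marker Rgs5 was at 653 and 794 rescaled TPM in the acute ECs and at most 2.99 in WT cultures, and smooth muscle actin, Acta2, at 231 and 349 against 357 to 1703. The part of these transcripts, and of the erythroid ones given above, in the differences was not tested.

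Other genes of the pathway were counted from lists, each with the same rule, and each count stands against 13.5% of all genes called higher and 10.2% lower. These lists too were chosen with earlier results of these data known, so the counts are a description. Of 11 regulators of NRF2, 3 were called higher and 1 lower (median log2 difference −0.39). The small MAF partners Maff (3.08) and Mafk (1.92) and the KEAP1-binding protein Sqstm1 (1.63) rose, and Nfe2l1, a related factor, fell by 1.28. Nfe2l2 itself, which was added to the named genes after its values were seen, was at 33.2 and 45.5 rescaled TPM in the acute ECs and at 52.1 to 144 in WT cultures, with a log2 difference of 1.11 ± 0.43 (adjusted p 0.0637). Of 23 glutathione enzymes, 11 were called higher and 1 lower (median 2.14). Chac1, which degrades glutathione, rose by 5.91, and the omega-class transferase Gsto1 (4.91) and glutaredoxin Glrx (4.46), which reduce disulfides of glutathione, rose with it. The sum over all 23 did not rise. It was 6639 and 8948 rescaled TPM in the acute ECs and 3685 to 7409 in WT cultures, and the ranges overlapped.

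Of 11 genes of the thioredoxin and peroxiredoxin system, 7 were called higher and 0 lower (median 1.87). The peroxiredoxins Prdx4 (log2 difference 3.77), Prdx5 (3.69) and Prdx3 (2.15), which remove peroxides, changed most, and Prdx1, the most abundant, rose by 1.92. Of 19 other NRF2 targets, 6 were called higher and 2 lower (median 1.96), led by malic enzyme Me1 (5.95), the formylglutathione hydrolase Esd (5.23) and the glutathione-conjugate exporter Abcc1 (3.65). Of 7 tested enzymes of superoxide and hydrogen peroxide, 1 was called higher and 1 lower (median −0.54): the NADPH oxidase Nox4 (7.05) and the extracellular superoxide dismutase Sod3 (−5.28). Of 7 genes of heme handling other than Hmox1, 2 were called higher and 0 lower (median 0.58), namely Hmox2 (1.16) and the heme exporter Flvcr1 (1.03). Of 4 tested genes of the metallothionein and zinc response other than Mt1 and Mt2, 0 were called higher and 2 lower (median −2.49). These were the zinc importer Slc39a10 (−6.02) and the zinc exporter Slc30a1 (−3.54), which MTF1 is known to activate.

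The second comparison set stabilized cultures against the same acute ECs. Hmox1, Srxn1 and Txnrd1 were again called higher, and none of the 10 lower, where 15.1% of 13888 genes were called higher and 11% lower. Both comparisons use the same acute libraries, so they are not independent of each other. Hmox1 was at 598, 593, 383 and 401 rescaled TPM in stabilized replicates 1 to 4 and differed by 5.13 ± 0.28 on the log2 scale, or 35.1-fold (adjusted p 8.1e-05). Srxn1 was at 59.2, 62.2, 38.1 and 42.2, with a log2 difference of 3.71 ± 0.27, or 13.1-fold (adjusted p 0.000167). Neither gene overlapped with the acute libraries. Txnrd1 was at 125.5, 129.6, 132 and 126 rescaled TPM, with a log2 difference of 2.07 ± 0.25, or 4.21-fold (adjusted p 0.000911), which became 1.16 and was lost with the length offset.

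The other 7 genes were not called in stabilized cultures against acute ECs, and 3 of them had an adjusted p under 0.05. Gsr was at 54.9, 54.6, 54.3 and 52.6 rescaled TPM (log2 difference 0.77 ± 0.16, adjusted p 0.00682), between the acute libraries. Nqo1 was at 13.2, 11.4, 7.98 and 9.44 rescaled TPM, above both acute libraries (1.33 ± 0.46, adjusted p 0.0447), and missed the TPM minimum. Mt1 was at 375, 424, 450.3 and 549.8 rescaled TPM, from below to above the acute libraries, and its counts were lower by less than 2-fold (−0.71 ± 0.24, adjusted p 0.0419). The counts of Mt1 and its level per length thus differed in sign. For Gclm (185, 195, 135.5 and 136 rescaled TPM), Gclc (31.2, 32.2, 21.6 and 22.3), Slc7a11 (11.2, 12.5, 3.47 and 4.32) and Mt2 (347, 387, 455 and 555) the adjusted p was 0.0979 to 0.863. In level, Gclm, Slc7a11 and Mt2 nevertheless lay above both acute libraries in each stabilized culture. For Mt2, whose log2 difference in counts was −0.08, counts and level per length thus also disagreed. In the NRF2 regulators, 4 of 11 were called higher and 0 lower, and these included Maff (3.21), Nfe2l2 (1.79 ± 0.48, adjusted p 0.017) and Mafk (1.77). Of the glutathione enzymes, 12 of 23 were called higher and 3 lower (median 1.63), of the thioredoxin and peroxiredoxin genes 8 of 11 and 0 (median 1.51), and of the other NRF2 targets 9 of 18 tested and 1 (median 1.89).

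The third comparison, of acutely isolated ECs with GFP-negative cells, asked in which sorted cells these genes were higher before culture. Mt1 and Mt2 were called lower in the ECs and none of the 10 higher, where 8.3% of 15102 genes were called higher and 7.56% lower. Mt1 was at 1166 and 2094 rescaled TPM in the GFP-negative cells, both above the acute ECs, and differed by −1.35 ± 0.38 on the log2 scale, 2.54-fold lower (adjusted p 0.0413). Mt2 was at 1013 and 931 rescaled TPM there, again above both acute libraries, and differed by −1.57 ± 0.46, 2.96-fold lower (adjusted p 0.0464). Both adjusted p lay close to the threshold, and without a single library 0 to 2 of the 10 genes were called. Without GFP-negative replicate 2, without acute EC replicate 2, or with the length offset, none was.

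Markers of many cell types moved with the metallothioneins. In the ECs, all 7 astrocyte, 6 oligodendrocyte and 4 choroid plexus and ependymal markers were called lower, as were 4 of 6 neuron, 5 of 9 microglia and macrophage, 4 of 8 pericyte and smooth muscle and 2 of 5 fibroblast markers. Astrocyte markers summed to 6391 and 12330 rescaled TPM in the GFP-negative cells, and pericyte and smooth muscle markers to 7513 and 8212. Mt3, the brain metallothionein, differed by −5.90 on the log2 scale, whereas Slc39a10 (5.82) and Slc30a1 (4.29) were higher in the ECs. In these sorted populations, fewer cells of a type and less RNA per cell cannot be told apart. Their part in the lower Mt1 and Mt2 was not tested.

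The other 8 genes were not called between the sorted populations. Slc7a11 was at 29.4 and 15.7 rescaled TPM in the GFP-negative cells, above both acute libraries (log2 difference −2.85 ± 1.08, adjusted p 0.0988). It was −5.49, and called, without acute EC replicate 1 and −1.99, and not called, without acute EC replicate 2. Srxn1 was at 8.72 and 10.3 (−1.73 ± 0.58, adjusted p 0.0708) and Nqo1 at 13.4 and 26.5 (−1.87 ± 0.79, adjusted p 0.13), each without overlap with the acute ECs. Gsr did not overlap either, although its log2 difference was only 0.10. The share of all genes without overlap between 2 libraries and 2 was not counted. Hmox1 was at 6.07 and 6.06 rescaled TPM in the GFP-negative cells, below both acute EC libraries (1.49 ± 0.63, adjusted p 0.129). The microglia and macrophage markers were 316 and 364 rescaled TPM in the GFP-negative cells against 3.30 and 27.8 in the ECs, and their part in the level of Hmox1 was not tested. Gclm (105 and 83.2), Gclc (25.8 and 22.3), Txnrd1 (49.2 and 59.9) and Gsr (19.6 and 24.1) had adjusted p of 0.454 to 0.896. Of the 11 NRF2 regulators, 3 were called higher in the ECs and 0 lower (median 0.90, against −0.06 for all genes), and of the 22 tested glutathione enzymes 2 were called higher and 1 lower (median −0.29).

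The fourth comparison asked whether stabilized beta-catenin altered these genes in culture. With all 4 stabilized and 6 WT libraries, edgeR called 0 of 12958 genes higher and 0 lower (0% each), and so none of the 10. The smallest adjusted p was 0.0905, 1344 genes had an unadjusted p under 0.05, among them 1 of the 10 (Gclc), and DESeq2 called 17 genes, none of these 10. Isolation method is a batch within this comparison. With method as a term, added after the data were seen, 6 genes were called, again none of the 10, and Txnrd1 turned from −0.11 to 0.05. Within method A 810 genes were called, with Hmox1 (1.08) and Slc7a11 (−1.07) among them, and within method B at 36 cycles 174, none of them among the 10. The calls among the 10 within a method were not set against the share of all genes tested. The log2 differences ran from −0.51 ± 0.33 for Nqo1 to 0.41 ± 0.24 for Hmox1 with adjusted p of 0.457 to 0.896. All 10 overlapped between the groups in rescaled TPM, and the share of all genes that did so was not counted. These data bound the differences only within such errors and do not show that the cultures were alike.

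Isolation method was then set against stabilization, in the 8 cultures of 36 cycles, with 2 stabilized and 2 WT wells for each method as the Methods assign them. The WT wells of method B are replicates 5 and 6, whose method is given differently in a legend, so the contrast is strictly one between 2 pairs of experiments. The effect of stabilization differed between methods for Hmox1, Nqo1, Txnrd1 and Slc7a11 at an adjusted p under 0.05 for the interaction, as it did for 49.6% of 13356 genes. A share of 4 of 10 was thus below that of all genes. Each method holds 1 experiment per genotype, and with method A the WT mice were C57BL/6J, for which the sources used here do not say whether they received 4-hydroxytamoxifen, so that stabilization, strain, drug and preparation cannot be told apart. Hmox1 was at 598 and 593 rescaled TPM in stabilized and 229 and 297 in WT wells of method A, and at 383 and 401 against 447 and 401 in those of method B. It rose with method A (log2 1.07 ± 0.12) and not with method B (−0.12 ± 0.12), an interaction of −1.20 ± 0.17 (adjusted p 0.000729).

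Slc7a11 ran the other way. It was at 11.2 and 12.5 rescaled TPM in stabilized and 21.03 and 24.5 in WT wells of method A, and at 3.47 and 4.32 against 2.84 and 3.65 in those of method B. The log2 differences were −1.08 ± 0.10 and 0.23 ± 0.11, with an interaction of 1.31 ± 0.15 (adjusted p 0.000272). Nqo1 differed by −0.62 ± 0.12 with method A and 0.36 ± 0.12 with method B (interaction 0.98 ± 0.17, adjusted p 0.00203). Txnrd1 differed by 0.26 ± 0.06 and −0.38 ± 0.06 (interaction −0.64 ± 0.09, adjusted p 0.000679). These 4 interactions kept an adjusted p under 0.05 and their sign with size factors, with the length offset and without any single well. For Mt1 (0.35 ± 0.12 and 0.40 ± 0.12) and Mt2 (0.37 ± 0.14 and 0.53 ± 0.13) stabilized wells were higher by less than 2-fold with both methods (adjusted p 0.0169 to 0.045), and the interactions were 0.05 ± 0.17 and 0.16 ± 0.19 (adjusted p 0.835 and 0.508). Gclc was lower with both methods (−0.28 ± 0.06 and −0.31 ± 0.06, adjusted p 0.00482 and 0.00656). The share of all genes with an adjusted p under 0.05 within each method was not counted. These p-values reflect the spread between wells only, so a like sign in both methods is a description and not a repeated effect of stabilization.

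**Figure D3:**
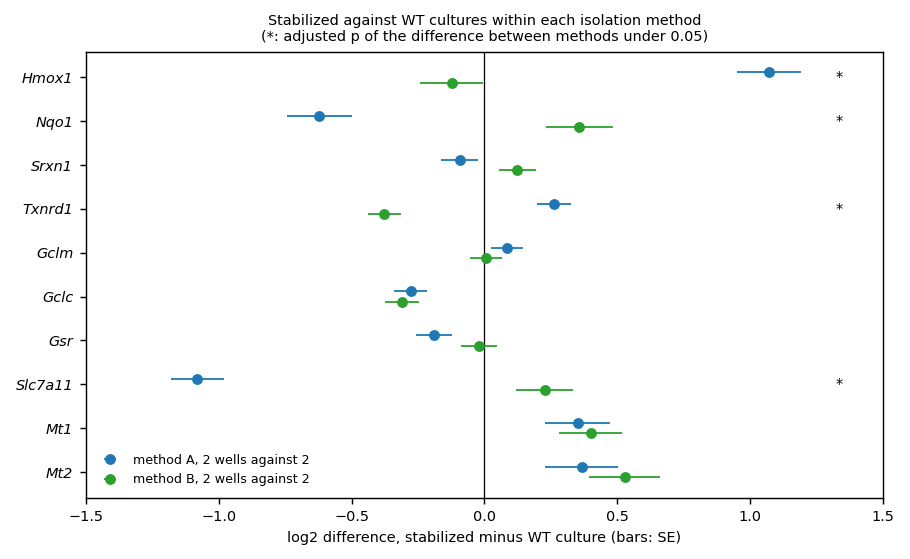
Log2 difference in counts between stabilized and WT cultures (x axis; bars, SE) within isolation methods A and B, 2 wells against 2 in each, with an asterisk where the difference between methods had an adjusted p under 0.05. Hmox1, Nqo1, Txnrd1 and Slc7a11 lie on opposite sides of 0 in the methods, and Mt1, Mt2 and Gclc on the same side.

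Among the 3 WT experiments, 4 of the 10 genes were called as different, against 35.6% of 13050 genes. The spread in this test is that between the 2 wells of an experiment. Its p-values therefore say only that experiments differed by more than wells did. The largest difference between experiments had a median of 1.22 on the log2 scale over all genes. Slc7a11 had the largest of the 10 (2.78, adjusted p 3.2e-09), with 21.03 and 24.5 rescaled TPM in replicates 1 and 2, 2.95 and 2.83 in replicates 3 and 4, and 2.84 and 3.65 in replicates 5 and 6. Only the experiment of method A was high. Mt1 (1.94, adjusted p 1.03e-07) was at 306 and 248, 867 and 858, and 355 and 402, so that the experiment of 150 cycles was high. Nqo1 (1.45, adjusted p 3.77e-05) was at 17.9 and 17.9, 15.3 and 21.7, and 6.498 and 6.86, with the method B experiment of 36 cycles low. Txnrd1 (1.06, adjusted p 2.24e-06) was at 97.9 and 97.2, 133 and 127, and 178 and 164, lowest with method A.

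The other 6 genes varied less among the WT experiments, with largest log2 differences of 0.29 for Gclc, 0.50 for Gclm, 0.64 for Mt2, 0.77 for Gsr, 0.95 for Hmox1 and 0.99 for Srxn1. Their adjusted p in the same test ran from 5.4e-06 (Srxn1) to 0.0295 (Gclc). They were thus not called only because each difference was under 2-fold. Hmox1 was at 229 and 297 rescaled TPM in replicates 1 and 2, 367 and 349 in replicates 3 and 4, and 447 and 401 in replicates 5 and 6. Mt2 stayed between 223 and 372, although its neighbor Mt1 varied. Mouse strain, method, read length and provider all differ between these experiments and cannot be told apart.

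For each of the 10 genes, the genes of most alike pattern over the 10 cultured libraries were sought by Pearson's r of log2(TPM + 1). These values share the composition of each library, which sets the TPM of all genes, so genes that led on deposited TPM and on rescaled TPM alike are named. They were Mettl23 (r = 0.996 and 0.991) and Rnase4 (0.994 and 0.985) for Nqo1, Gpr137b for Gclm (0.999 and 0.983), Mfsd14b for Srxn1 (0.997 and 0.987), Aurkaip1 for Gsr (0.998 and 0.984) and Fah for Mt1 (0.995 and 0.979). For Hmox1, Gclc, Txnrd1 and Mt2 the leading genes differed between scales (on rescaled TPM, Vps11, Mthfd2l, Tsc22d2 and F2r, with r of 0.985, 0.97, 0.985 and 0.933). Over 10 libraries from 5 experiments such values are a description only.

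ATAC-seq, which reads accessible chromatin, covered 2 acute EC, 6 WT culture and 2 stabilized culture libraries, of which WT replicates 1 and 2 were made by method A and the other cultures by method B. All 10 genes had a peak within 1 kb of an annotated start in all 10 libraries. The share of all genes with such peaks was not counted, so this is not a trait particular to the 10. Peaks numbered 31844 and 37453 in the acute ECs, 33152 to 98840 in WT cultures and 79160 and 80075 in stabilized cultures. The files hold a fold enrichment over local background for each peak, called in each library alone, so these values were described and not tested. How many of all peaks differ without overlap between acute ECs and cultures was not counted either.

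At the start of Nqo1 the strongest peak had a fold enrichment of 3.94 and 4.46 in the acute ECs and of 10.2 to 21.5 (median 17.7) in the 8 cultures. At Slc7a11 it was 4.89 and 4.33 against 10.5 to 16.1 (median 14.04). Both starts were thus higher in each culture than in either acute library, those of method B included, with which the RNA of Slc7a11 was low. At Srxn1 it was 10.5 and 10.6 against 11.0 to 16.8, and at the internal start of Txnrd1, at 25.04 kb, 7.65 and 11.8 against 12.6 to 17.7. These ranges also did not overlap, and the share of all peaks that separated likewise was not counted. At Hmox1, whose RNA differed most, the start peak was nearly level, at 10.8 and 10.6 against 10.6 to 14.2.

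Mt2 was lower in all cultures, at 14.1 and 12.4 in the acute ECs against 4.67 to 7.79 (median 6.70) in culture. At Mt1, 6.42 kb away, the values were 14.5 and 12.5 against 9.47 to 16.4 (median 12.5), and overlapped. Gclm was lower in culture (17.0 and 15.8 against 10.5 to 15.0), and Gclc (7.03 and 6.67 against 4.78 to 7.45) and Gsr (14.9 and 15.2 against 8.59 to 17.2) overlapped. For Mt2 and Gclm, lower in each culture, the share of all peaks that separated likewise was not counted.

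**Figure D4:**
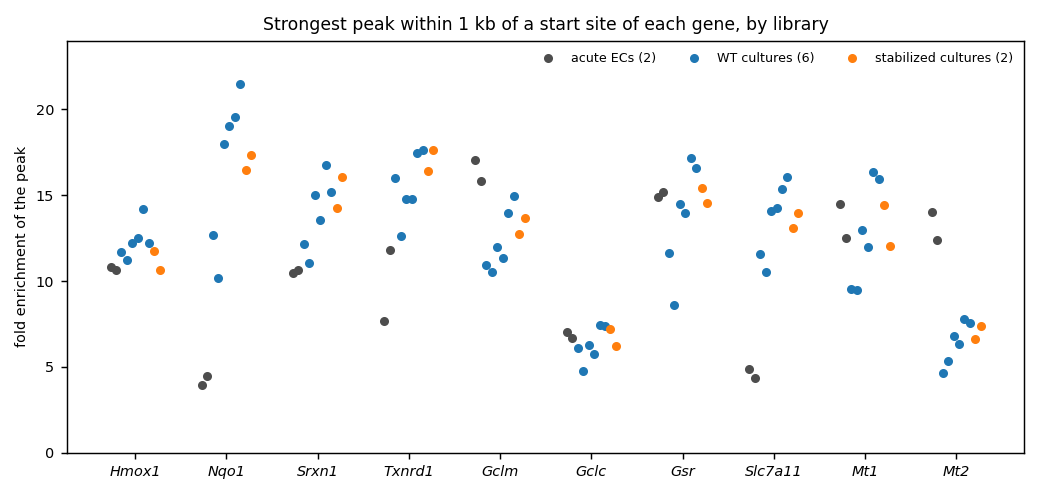
Fold enrichment over local background (y axis) of the strongest peak within 1 kb of a start of each gene, with a point for each of 2 acute EC, 6 WT culture and 2 stabilized culture libraries. Nqo1 and Slc7a11 have values under 5 in the acute ECs and above 10 in each culture, and Mt2 is highest in the acute ECs.

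Away from its start, Hmox1 had peaks in all 10 libraries at −9.62 kb and −3.93 kb, the windows whose sequence is printed above. The −9.62 kb peak had a fold enrichment of 7.96 and 11.2 in the acute ECs, 13.5 to 19.9 in WT cultures and 17.8 and 18.9 in stabilized cultures. The −3.93 kb peak had 4.88 and 6.32 in the acute ECs, 6.83 to 9.99 in WT cultures and 10.1 and 8.59 in stabilized cultures. Both were thus higher in each culture than in either acute library, and the share of all peaks that were so was not counted. A neighboring peak at −8.77 kb, with no match to TGACNNNGC, ran the other way, with 8.37 and 5.55 in the acute ECs and 2.62 to 4.04 in culture.

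**Figure D5:**
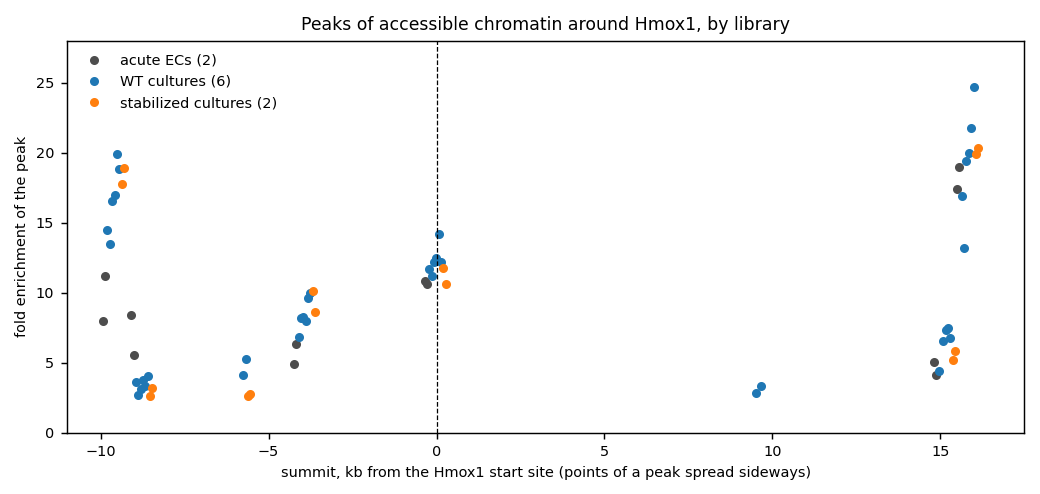
Peaks of accessible chromatin by distance of the summit from the Hmox1 start in kb (x axis; the points of a peak are spread sideways) and fold enrichment (y axis), for 2 acute EC, 6 WT culture and 2 stabilized culture libraries. The peaks at −9.62 kb and −3.93 kb are lower in the acute ECs than in each culture, the peak at −8.77 kb is higher in them, and the start peaks overlap.

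At Txnrd1 the peak at −19.71 kb, also printed above, was in none of the acute libraries and in all 8 cultures, with a fold enrichment of 4.64 to 19.0. In all, 85 peak regions lay within 20 kb of the 10 genes. Of these, 25 (29.4%) were in both acute and all 8 cultured libraries, against 13.4% of all 125938 regions, and 4 (4.71%) were in all cultures and in no acute library, against 8.03% of all regions. The latter were the Txnrd1 regions at −19.71 kb and 65.92 kb, the Gsr region at 8.16 kb in an intron and a region at −19.97 kb from Mt2 that overlaps an exon of Mt3. Only the Gsr region at −15.99 kb was in both acute libraries and no culture. Of the 85 regions, 24 (28.2%) held TGACNNNGC within 150 bases of the summit, against 15.2% of all regions, and 4 (4.71%) held it at least 2 times, against 1.42%. These shares are a description, since regions were not matched for strength or for distance from a start.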

How the data were processed

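The deposited RNA-seq files held estimated counts and TPM per transcript, which the authors had made with Salmon 0.14.0 on GENCODE M21, after combining cerebrum and cerebellum for the sorted cells. The deposited ATAC-seq peak lists (mm10, the same assembly as GRCm38) held, for each library, the fold enrichment, a −log10 of p and q, and a score from MACS2 2.1.2, of which the authors kept stronger peaks in a later step that was not repeated here. Reads had been aligned with HISAT2 2.1.0.

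Values were summed per gene symbol, and estimated counts were rounded to whole numbers. Each comparison was fitted on its own libraries with edgeR 4.0.16 (TMM, filterByExpr, quasi-likelihood test, Benjamini-Hochberg adjustment over all genes tested), and SE is the log2 difference divided by the square root of F. The interaction of method and genotype, the fit with method as a term, and rescaled TPM were added after the data were seen. Alternatives used DESeq2 1.42.0, other scalings and filters, a transcript-length offset, and subsets of libraries. Replicate numbers were taken as pairs in no comparison (correlation of deviations −0.0347 to 0.551, and not above 0.1 in every pair). For the sorted cells, with 2 libraries in each group (r = 0.0963), this check cannot decide whether the samples were paired. Peaks of all libraries were merged into regions. The members and gene lists were chosen with earlier results of these data known, and from each list the 3 called genes of largest change and the most abundant gene could be named. The fits were tested on simulated data. The 6 samples of cerebrum alone were not analysed here.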

Additional observations from a re-analysis of the deposited data

Results flagged for a closer look

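The effect of stabilization differed between isolation methods for 4 of the 10 genes by the test of the difference itself, in 8 cultures of 36 cycles. The log2 difference of method B minus that of method A was −1.195 for Hmox1 and −0.6369 for Txnrd1, and 0.9791 for Nqo1 and 1.308 for Slc7a11. The same test passed for 49.6% of all genes, and each method and genotype was 1 experiment.

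The peak 26.58 kb from the first Txnrd1 start had a fold enrichment of 4.28 in WT culture replicate 2, away from 2.72 to 3.11 in the other 5 WT cultures. It was the only value that stood apart from its group among the 36 groups tested, and chance alone sets such a value apart in about 1 group of 20.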

How the results depend on the processing

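Hmox1 and Srxn1 were called in both comparisons of cultures with acute ECs under each alternative tried. Txnrd1 was too, except with the length offset, and the 4 interactions kept their sign and call in all 10 of theirs. Of the counts of calls, 86 values stayed within 1.5 times of the reported one and 15 moved, besides those that left out a library. The cause of each shift below was not tested, except that no TPM minimum admits more genes by construction.

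For WT cultures against acute ECs, the length offset called 2 of the 10 genes and turned Gsr to −0.39, Mt1 to 0.2493 and Mt2 to 0.5056. Calls over all genes were 5985 with no TPM minimum and 2091 after the wells of an experiment were added up, and Slc7a11 was −0.4236 in method B with 36 cycles. Without single libraries, Gclm ran from −0.1281 to 0.6193, Mt2 from −0.9186 to 0.2351 and Slc7a11 from 0.2152 to 3.601. For acute ECs against GFP-negative cells, 1 of the 10 was called with DESeq2 size factors and with all 14 libraries in 1 fit, and 0 with the length offset, where 1572 genes were called. No TPM minimum called 4479 genes, and scaling by library size turned Gsr to −0.3176. Without single libraries 0 to 2 of the 10 were called, Gsr ran from −0.1851 to 0.4545 and Gclm from −0.03618 to 0.5971.

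For stabilized against WT cultures, DESeq2 called 17 genes, method A alone 810 with 2 of the 10 (Hmox1 and Slc7a11), and method B alone 174. The 2 of 10 were not set against the share of all genes tested. With isolation method as a term there were 6 calls and Txnrd1 was 0.04545. With 36-cycle cultures Gclm was 0.0442 and Mt1 0.3711. In method A, Gclm was 0.09561, Txnrd1 0.271 and Mt1 0.3599. In method B, Hmox1 was −0.1341, Nqo1 0.3481, Srxn1 0.1133, Slc7a11 0.2181 and Mt1 0.3905. Without single libraries Slc7a11 ran from −0.7008 to 0.02575 and Txnrd1 from −0.2257 to 0.01989. For stabilized cultures against acute ECs, Mt2 was 0.08046 when scaled by library size, and the length offset gave −0.7977 for Gsr and 0.8717 for Mt2. Without single libraries Gclm ran from −0.1977 to 0.5802, Mt2 from −0.521 to 0.5996 and Slc7a11 from −0.1562 to 3.203. Among the WT experiments, no TPM minimum called 7629 genes. The interaction of Mt1 was −0.02746 with the length offset, and without single wells it ran from −0.09433 to 0.1807, that of Mt2 from −0.04602 to 0.3584 and that of Gclc from −0.07829 to 0.01518.

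Replicate numbers mark no shared animal or day in the labels. In stabilized and WT cultures, however, replicates 1 and 2 share method A, and deviated together (r = 0.531 and 0.551), whereas replicates 3 and 4 share method B but not read length (r = 0.0228 and 0.0999). With a replicate block, stabilized against WT cultures gave 173 calls, none of the 10 genes, and Txnrd1 at 0.2191. With a replicate block, WT cultures against acute ECs kept Hmox1, Txnrd1 and Srxn1, lost Gsr and gained Mt1 (lower).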

Other observations

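Other stress-responsive lists differed between WT cultures and acute ECs in both directions. Of 18 tested targets of ATF4, the amino acid response factor that also activates Slc7a11 and Chac1, 7 were called higher and 4 lower (median log2 difference 2.21), against 13.5% and 10.2% of all genes. The enzymes of serine and one-carbon metabolism Phgdh (7.63, with an acute library at 0) and Mthfd2 (6.85 ± 0.72, adjusted p 0.000227) led them with Chac1, and Mthfd2 was at 0.127 and 2.81 rescaled TPM in the acute ECs and 28.3 to 50.7 in WT cultures. Chac1 was at 0.23 and 0.447 against 15.2 to 26.0. The genes named were scarce in the acute ECs, and the sum over all ATF4 targets went the other way. It was 6366 and 8291 rescaled TPM in the acute ECs and 882 to 1738 in WT cultures. Of 8 heat shock genes, 2 were called higher and 2 lower (median −0.21). Hspa1b, the inducible chaperone, fell by 6.32 (adjusted p 0.000226), from 33.1 and 321 rescaled TPM to 2.52 to 8.10, while the constitutive chaperone Hspa8 was called higher in counts (1.89) although its level was 2622 and 2710 in the acute ECs and 1094 to 4388 in WT cultures.

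Of 9 glucocorticoid-responsive genes 2 were called higher and 1 lower (median 0.64), beside the same 13.5% and 10.2% of all genes. Fkbp5, a co-chaperone of the glucocorticoid receptor, rose by 5.34 ± 0.38 (adjusted p 4.65e-05), from 0.434 and 0.714 to between 31.4 and 44.6 rescaled TPM, and the kinase gene Sgk1 rose by 2.57. Nr3c1, which encodes the receptor, fell by 2.25. Zinc transporters were lower in culture in level as well as in counts, with Slc39a10 at 1222 and 1488 rescaled TPM in the acute ECs and 13.9 to 17.1 in WT cultures, and Slc30a1 at 528 and 669 against 19.8 to 66.0. None of these lists had a gene called between stabilized and WT cultures, where edgeR called 0 genes in all, 1344 genes had an unadjusted p under 0.05 and DESeq2 called 17.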
